A study of Mus musculus with 6 samples.

Results

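The B lineage genes described here are Jchain, Ighm, Ighd, Cd79a, Cd79b, Ms4a1, Pax5, Ebf1 and Vpreb1, 9 of the 57010 genes in the count table, found by their gene symbols. They were read in monocytes enriched from bone marrow of C57BL/6 mice aged 1 year, as 3 femur libraries (S13, S15, S18) of femur-derived monocytes and 3 mandible libraries (S16, S19, S23) of mandibular-derived monocytes. The enrichment was a negative selection, in which labelled marrow cells stayed on a magnetic column and the unlabelled flow through was collected. The antibodies of the cocktail are not given in the sources used here. The study used male and female mice, without naming the sex or the animal of each library, so p-values measure only the spread between these libraries.

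B cells arise in the marrow, where the transcription factors EBF1 and PAX5 commit lymphoid progenitors to the lineage. Early B cells carry a surrogate light chain, made in part from VPREB1, with the μ heavy chain of IgM. B cells then carry IgM together with the signaling chains CD79A and CD79B, and mature B cells also carry IgD and CD20, the product of Ms4a1. Plasma cells lose PAX5 and CD20, secrete antibody, and make the J chain that links polymeric IgM and IgA. The comparison asked which of these stages left RNA in the libraries, and whether its level differed between skeletal sites.

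The totals on genes were 15718782 to 25371474 counts. Values are given in CPM, the counts of a gene relative to the library total, after scaling of the libraries by TMM (trimmed mean of M values), or in those CPM per kilobase of gene length (RPKM) where genes are compared with each other. Where a gene had 0 counts, its true level could still reach that of 3 counts, 0.133 to 0.172 CPM, and this limit covers counting error only. All 8 monocyte markers, among them Ly6c2, Ccr2, Csf1r and Lyz2, had counts in every library, and their summed level was 6148 to 12290 CPM in the femur and 5676 to 9618 CPM in the mandible. None of the 8 was called different. Femur library S15 stood apart from the others, with a count in 40494 genes against 17481 to 23513. In S15, 1073 of 1771 olfactory and vomeronasal receptor genes, which marrow cells are not known to use, had a count, and in the other libraries 6 to 78 did. Their summed level was 0.0700 RPKM in S15 and 0.00151 to 0.00904 RPKM elsewhere. This list was chosen after the data were seen. Xist, the RNA of the inactive X chromosome of female cells, had 25189 counts in mandible library S23 and at most 12 in any other library. By this RNA no femur library held many female cells. Where a result turns on S23, sex and other traits of that library cannot be told apart.

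The promoters of 5 of the 9 genes were in the RefSeq sequences used here (GRCm38.p6), while Cd79b, Ms4a1, Ighm and Ighd had no entry. The 250 bases before the RefSeq start site are shown for a plasma cell gene, a gene of every IgM-bearing B cell and an early B gene. Gene positions given below are from another annotation, GENCODE M21, whose gene starts can differ. By those positions the Vpreb1 and Ebf1 windows lie inside the gene and the Cd79a window partly so. The Jchain and Pax5 windows lie before the gene. The sequences of Jchain (chr5:88527898-88528147, minus strand), Cd79a (chr7:24897247-24897496, plus strand) and Vpreb1 (chr16:16869256-16869505, minus strand) read 5′ to 3′ as follows, and capitals mark CAGNTG, an E-box letter pattern of the kind that E proteins bind.
Jchain: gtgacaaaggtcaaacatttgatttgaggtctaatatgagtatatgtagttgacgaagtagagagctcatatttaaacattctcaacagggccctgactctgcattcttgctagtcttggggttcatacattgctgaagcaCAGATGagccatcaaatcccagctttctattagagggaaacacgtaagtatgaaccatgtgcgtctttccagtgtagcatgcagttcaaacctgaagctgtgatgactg
Cd79a: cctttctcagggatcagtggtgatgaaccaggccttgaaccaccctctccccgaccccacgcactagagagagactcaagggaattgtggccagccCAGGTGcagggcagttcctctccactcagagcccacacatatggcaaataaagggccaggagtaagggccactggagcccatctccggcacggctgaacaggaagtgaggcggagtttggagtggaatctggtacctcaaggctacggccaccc
Vpreb1: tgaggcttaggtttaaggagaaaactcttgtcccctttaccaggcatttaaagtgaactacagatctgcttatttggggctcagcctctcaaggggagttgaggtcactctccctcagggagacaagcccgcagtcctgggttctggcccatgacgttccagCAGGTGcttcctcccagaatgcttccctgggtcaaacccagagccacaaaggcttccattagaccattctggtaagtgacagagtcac

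The 3 windows shown each held 1 match to CAGNTG, searched on both strands, while the Pax5 window and both Ebf1 windows held none. Over all 32536 promoter windows of this length, 44.8% held at least 1 match. The octamer ATGCAAAT, known from immunoglobulin promoters, and CCCNNGGG, a strict form of the EBF1 motif core, were searched on both strands too. Neither had a match in any of the 6 windows. Over all windows, 1.62% held the octamer and 11.9% held CCCNNGGG. With matches to CAGNTG alone, no overlap between motifs could arise in these windows. No match says only that the exact letters are not in the window, and a binding site with other letters would be missed.

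Per length, Ighm and Jchain lay far above the other 7 genes in every library. Ighm, the constant region of IgM heavy chains, had the highest level, 578 ± 186 RPKM (SD, n = 6 libraries), and Jchain was next at 150.2 ± 81.5 RPKM (SD, n = 6). Cd79b followed at 6.17 ± 3.14 RPKM and Cd79a at 1.64 ± 0.911 RPKM (SD, n = 6). The ranges of these neighbours did not overlap, and the order Ighm, Jchain, Cd79b, Cd79a was found in all 6 libraries. Below Cd79a came Ebf1 at 0.785 RPKM, Ighd at 0.342 RPKM, Ms4a1 at 0.328 RPKM, Pax5 at 0.239 RPKM and Vpreb1 at 0.0640 RPKM. From Cd79a down, the range of each gene overlapped that of the next, and each lay above the next in 3 to 5 of the 6 libraries. The differences between these neighbours were not tested. Within a library, Jchain was 112 to 1740 times the level of Ms4a1 per length, with the lowest ratio in mandible library S23 and the highest in femur library S18. Ighm was 75.2 to 171 times the level of Cd79b.

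**Figure D1:**
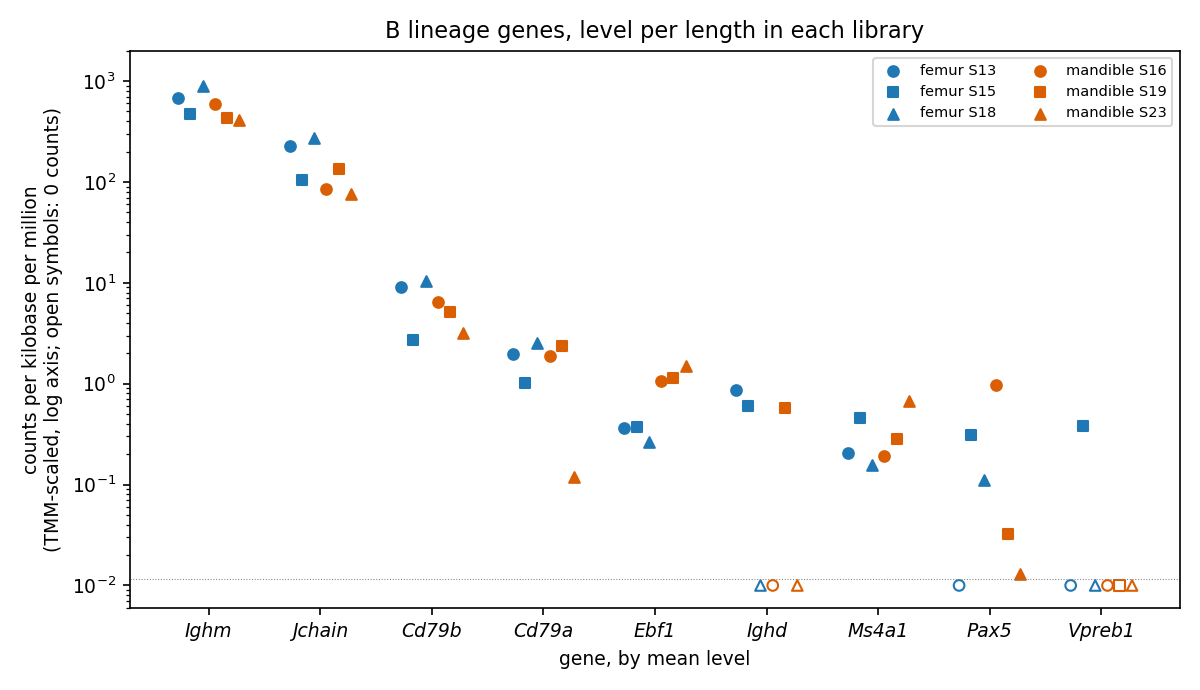
Level per length of the 9 B lineage genes (RPKM, TMM-scaled, log axis) in each of the 3 femur (blue) and 3 mandible (orange) libraries, with open symbols at the bottom for 0 counts. Ighm and Jchain lie above 75 RPKM in every library, while Vpreb1 has counts only in femur library S15.

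Of the 9 genes, 8 passed the count filter and were tested, and Vpreb1 did not pass. With edgeR's quasi-likelihood test and Benjamini-Hochberg adjustment over all 18114 tested genes, 1 of the 8 was called, meaning an adjusted p under 0.05 with at least a 2-fold change. This was Ebf1, which was higher in the mandible. Over all tested genes 5.18% were called, 3.88% higher and 1.30% lower in the mandible. An unadjusted p under 0.05 was found for 2 of the 8, Ebf1 and Jchain, and for 16.4% of all tested genes. Ebf1 was also the only one of the 8 whose groups did not overlap, against 24.2% of all tested genes. The median log2 fold change of the 8 was -0.43, with 3 above and 5 below 0, beside -0.038 over all tested genes. In these bulk libraries, fewer cells of a type and less RNA per cell cannot be told apart.

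Jchain (ENSMUSG00000067149, chromosome 5 from 88519809 to 88527891 of GRCm38) had lower values in most mandible libraries. It was measured at 571, 265 and 689 CPM in femur libraries S13, S15 and S18 and at 216, 338 and 189.8 CPM in mandible libraries S16, S19 and S23. Femur library S15 lay below mandible library S19, so the groups overlapped. Femur-derived monocytes averaged 508 ± 219 CPM (SD, n = 3) against 248 ± 79.0 CPM (SD, n = 3) for the mandible, and the log2 fold change was -1.04 (standard error, SE, 0.39, edgeR quasi-likelihood adjusted p = 0.18). Jchain was called lower without femur library S15 (log2 fold change -1.39, adjusted p = 0.016, edgeR, with 3.24% of all genes called lower in that fit). It was also called lower with DESeq2 (adjusted p = 0.047, with 2.58% of all genes called lower) and with no filter beyond a single count (adjusted p = 0.038, edgeR, with 1.35% called lower), and over all 14 alternatives the adjusted p ran from 0.016 to 0.60. Neutrophil and erythroid markers were read beside it. By summed level both lists were highest in S13 and next in S18, and Jchain was highest in S18 and next in S13. From high to low, the mandible libraries ran S19, S16, S23 for Jchain and for the neutrophil list. For the erythroid list they ran S16, S23, S19. All 8 markers of each of these lists had a log2 fold change below 0, with medians of -1.46 and -2.16, and 1 neutrophil and 3 erythroid genes were called. The summed level of the neutrophil list was 3699 to 32640 CPM in the femur, lowest in S15, and 3902 to 10320 CPM in the mandible, and that of the erythroid list was 229 to 1405 CPM and 118 to 185 CPM. No marker of either list was at 0, and their part in the Jchain result was not tested.

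Ighm (ENSMUSG00000076617, chromosome 12 from 113418558 to 113422730) was the most abundant gene of the group in every library. It had 1292, 881 and 1677 CPM in femur libraries S13, S15 and S18 and 1112, 807 and 769 CPM in mandible libraries S16, S19 and S23. The highest values were from S18 and S13, and S15 lay among the mandible libraries. The log2 fold change was -0.52 (SE 0.35, edgeR quasi-likelihood adjusted p = 0.55), so a difference between sites was not shown. Counts per gene do not separate secreted from membrane-bound IgM, nor transcripts of the unrearranged locus, which other marrow cells can make.

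The other constant genes of antibodies ranged widely in level, from Igkc at 1008 CPM over the 6 libraries to Ighe, which was at 0 in 4 of them. Igkc, the constant region of κ light chains, had 662 to 2017 CPM in the femur and 501 to 902 CPM in the mandible, with a log2 fold change of -0.90 (SE 0.43, edgeR quasi-likelihood adjusted p = 0.33). Of the 12 constant genes on the list, 11 were tested, 9 had a log2 fold change below 0, and the median was -0.90. Iglc3, a constant region of λ light chains, was the only one called in the fit as reported, and it fell from 36.7 ± 14.5 CPM to 10.8 ± 2.78 CPM (SD over 3 libraries per site), or by 1.76 on the log2 scale (SE 0.39, edgeR quasi-likelihood adjusted p = 0.024). Iglc2 is nearly identical to Iglc3, so how reads were shared between them is uncertain, and the log2 fold change of Iglc2 was -1.41 (adjusted p = 0.23). Igkc was also called lower without S15, and Iglc2 and Ighg2b with no filter beyond a single count. Iglc3 was highest in S15, and its call was lost without S16, S18, S19 or S23 and after a correction for gene length. Variable gene segments summed to 234 to 612 CPM (Ighv) and 408 to 1109 CPM (Igkv) in the femur, and to 198 to 293 CPM and 285 to 449 CPM in the mandible.

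Per length, Ighm made up most of the heavy chain constant level in every library. Its share was 87.5% in S13, 91.6% in S15 and 70.7% in S18 of the femur, and 81.2% in S16, 67.5% in S19 and 90.6% in S23 of the mandible. The shares of both sites overlapped. Igha, the heavy chain of IgA, took 2.73 to 16.3%, and the 4 IgG genes together took 4.76 to 20.0%. Ighd took at most 0.119%.

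**Figure D2:**
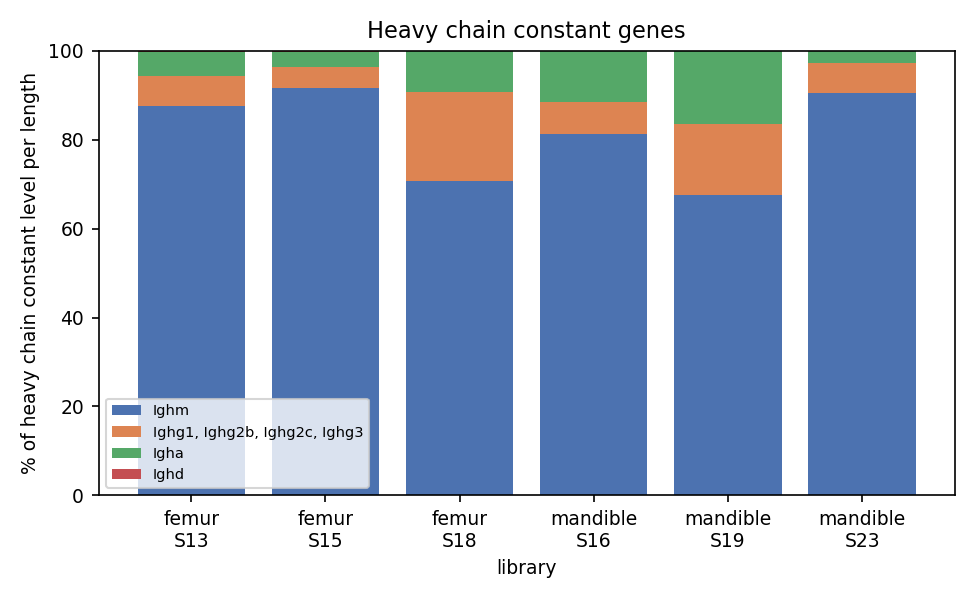
Share of each class in the summed heavy chain constant level per length (percent), one bar for each of the 6 libraries. Ighm takes 67.5 to 91.6% in each bar, and Ighd, at most 0.119%, is too thin to be seen.

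Among the 12 genes of the plasma cell list, which also holds genes of the secretory pathway that other cells use, all 12 were tested and 1 was called. That gene was Sdc1, which encodes syndecan-1, a surface proteoglycan of plasma cells and of many epithelial cells. It rose from 8.67, 8.48 and 12.1 CPM in femur libraries S13, S15 and S18 to 32.2, 38.3 and 45.9 CPM in mandible libraries S16, S19 and S23, a log2 fold change of 1.99 (SE 0.32, edgeR quasi-likelihood adjusted p = 0.0042). Sdc1 and Jchain thus had log2 fold changes of opposite sign, and that difference was not tested. The median of the list was 0.20, with 7 genes above and 5 below 0. Xbp1 and Txndc5, which serve the folding and export of proteins, were the most abundant after Jchain, with log2 fold changes of -0.004 and 0.31 (adjusted p of 1.0 and 0.69, edgeR). Mzb1, a chaperone for antibody secretion, had 75, 23 and 83 counts in femur libraries S13, S15 and S18 and 0, 24 and 13 counts in mandible libraries S16, S19 and S23. Its level per length was 0 to 3.41 RPKM, against 75.4 to 274 RPKM for Jchain. Tnfrsf17, the plasma cell receptor BCMA, had 0 to 33 counts.

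CD79A and CD79B, the signaling chains of the B cell receptor, had low counts. Cd79b (ENSMUSG00000040592, chromosome 11 from 106311341 to 106314762) was measured at 13.04, 3.92 and 15.02 CPM in femur libraries S13, S15 and S18 and at 9.16, 7.36 and 4.52 CPM in mandible libraries S16, S19 and S23. As with Jchain and Ighm, S13 and S18 were highest and S15 lay within or below the mandible range. Its log2 fold change was -0.60 (SE 0.57, edgeR quasi-likelihood adjusted p = 0.71). Cd79a (ENSMUSG00000003379, chromosome 7 from 24897381 to 24902197) had 52, 32 and 83 counts in femur libraries S13, S15 and S18, and 55, 72 and 3 counts in mandible libraries S16, S19 and S23. Only S23 was low. The log2 fold change of Cd79a was -0.33 (SE 1.09, edgeR quasi-likelihood adjusted p = 0.94), and it was 0.15 without S23.

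The mature B members Ms4a1 and Ighd had few counts. Ms4a1 (ENSMUSG00000024673, chromosome 19 from 11249675 to 11266241), the gene of CD20, had 23, 61 and 22 counts in femur libraries S13, S15 and S18, and 24, 37 and 73 counts in mandible libraries S16, S19 and S23. The highest counts were in S23, where Cd79a was lowest, and in S15. The log2 fold change was 0.49 (SE 1.03, edgeR quasi-likelihood adjusted p = 0.90) and turned to -0.24 without S23. Ighd (ENSMUSG00000104213, chromosome 12 from 113406604 to 113416324), the IgD heavy chain, had 30 counts in S13, 25 in S15 and 23 in S19, and none in S18, S16 and S23. Libraries with and without counts were thus found at both sites, and the log2 fold change of -1.34 (SE 2.18, edgeR quasi-likelihood adjusted p = 0.86) rests on them, running from -7.25 without S19 to -0.62 without S13. Cr2, the complement receptor of mature B cells, had 33 counts in S15 and at most 3 in any other library, and Fcer2a had 17 in S15 and at most 6 elsewhere. In S15, where most sensory receptor genes had a count, Cr2 was at 0.187 RPKM and Fcer2a at 0.253 RPKM, beside 0.0700 RPKM for those receptor genes. Ms4a1 was at 0.454 RPKM and Ighd at 0.606 RPKM in the same library. The source of the S15 reads on these genes is thus uncertain. Of the 12 genes on the mature B list 9 were tested, none was called, and 1, Zfp318, had an unadjusted p under 0.05. Their median log2 fold change was 0.49, and whether mature B cells were the source of this RNA was not tested. The highest CPM, not corrected for length, were those of Ralgps2 (11.2 to 29.5), Zfp318 (13.3 to 33.8) and Bach2 (4.86 to 12.4), with log2 fold changes of 0.060, 0.88 and 0.81 (adjusted p of 0.97, 0.18 and 0.46, edgeR).

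Of the transcription factors of B cell commitment, Pax5 (ENSMUSG00000014030, chromosome 4 from 44524757 to 44710487) had 0, 59 and 22 counts in femur libraries S13, S15 and S18 and 172, 6 and 2 counts in mandible libraries S16, S19 and S23. A single mandible library, S16, held most of its counts, and the log2 fold change of 1.28 (SE 1.70, edgeR quasi-likelihood adjusted p = 0.82) was -2.56 without S16. In S15 Pax5 was at 0.307 RPKM, beside 0.0700 RPKM for the sensory receptor genes, so the source of its S15 reads is uncertain. Antisense transcripts overlap exons of Pax5, and the use of strand in counting is not given in the sources used here.

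Ebf1 (ENSMUSG00000057098, chromosome 11 from 44617317 to 45008091) was higher in the mandible. It had 3.54, 3.59 and 2.61 CPM in femur libraries S13, S15 and S18 and 10.5, 11.0 and 14.8 CPM in mandible libraries S16, S19 and S23. Every mandible library lay above every femur library (p = 0.1 in an exact two-sided permutation test, which is the lowest p that 3 against 3 libraries allow). The log2 fold change was 1.89 (SE 0.49, edgeR quasi-likelihood adjusted p = 0.048), and it stayed between 1.33 and 1.999 over 14 alternatives. The call was close to the threshold and was lost in 10 of them, with adjusted p from 0.058 to 0.21, namely without any 1 of the 6 libraries, without normalization factors, with no filter beyond a single count, with limma-voom and after a correction for gene length. Ebf1 is also a gene of mesenchymal and fat precursor cells, and markers of marrow stroma and bone rose in the same libraries. Of 10 such markers 8 were called higher, and their summed level was 302 to 399 CPM in the femur and 8607 to 14940 CPM in the mandible. Col1a1 and Pdgfra had counts in every library, Prrx1 was at 0 in S13, and Cxcl12 and Lepr, markers of the marrow niche, were not called and had log2 fold changes below 0. Cxcl12 was at 149 to 243 CPM in the femur and at 34.7 to 120.9 CPM in the mandible, without overlap (log2 fold change -1.42, edgeR quasi-likelihood adjusted p = 0.084). The part of such cells in the Ebf1 result was not tested. Of the other tested members, Pax5 and Ms4a1 had log2 fold changes above 0 like Ebf1, and Cd79a, Cd79b, Ighm, Ighd and Jchain below 0, and their difference from Ebf1 was not tested. Among the other pan-B genes Blnk, an adaptor of B cell receptor signaling, had no overlap between the groups, as had 24.2% of all tested genes. The log2 fold change of Blnk was 1.67 (SE 0.67, edgeR quasi-likelihood adjusted p = 0.23), and which cells its RNA came from was not tested. Within the EBF family, Ebf3 had 9.45 to 9.76 CPM in the femur and 0.1 to 5.61 CPM in the mandible (adjusted p = 0.51, edgeR), Ebf4 had at most 0.922 CPM in the femur and 1.90 to 7.49 CPM in the mandible (adjusted p = 0.29, edgeR), and Ebf2 had counts in S15 and S19 only.

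**Figure D3:**
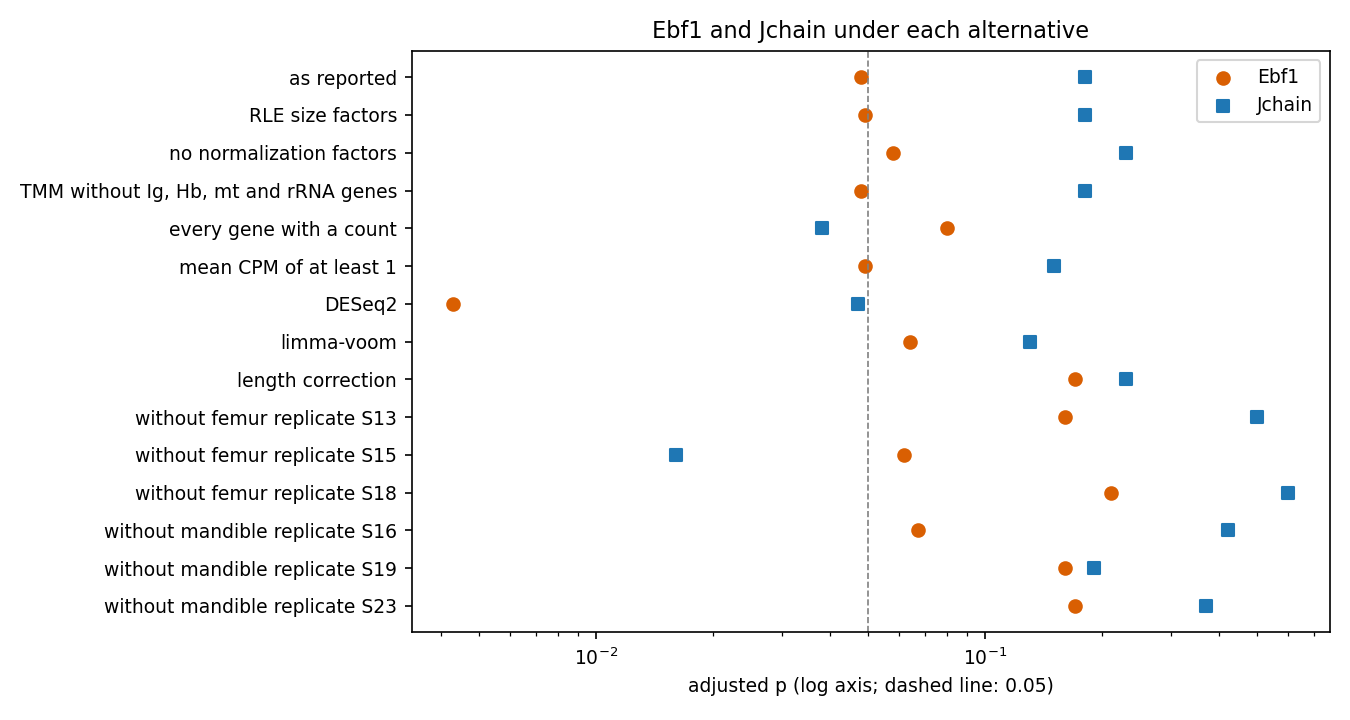
Adjusted p of Ebf1 (orange) and Jchain (blue) in the fit as reported and under each of 14 alternatives, on a log axis with a dashed line at 0.05. Ebf1 lies on either side of the line, from 0.0043 with DESeq2 to 0.21 without femur library S18, and Jchain lies below it under 3 alternatives.

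The genes of the surrogate light chain were at or near 0. Vpreb1 (ENSMUSG00000059305, chromosome 16 from 16868403 to 16870843) had 10 counts in femur library S15 and none in the other 5 libraries. S15 is the library with counts on most sensory receptor genes. In it Vpreb1 was at 0.384 RPKM, beside 0.0700 RPKM for those receptor genes, and exons of Top3b overlap Vpreb1 on the other strand, so the source of these reads is uncertain. The partner of VPREB1 in the surrogate light chain, Igll1, had 12, 7 and 1 counts in femur libraries S13, S15 and S18, and 10, 17 and 0 counts in mandible libraries S16, S19 and S23. Vpreb2 had 7 counts in S13 alone, Vpreb3 had 0 to 16 counts, and Rag1 and Rag2, the enzymes that rearrange antibody genes, had 0 to 62 and 0 to 29 counts. The genes Dntt, Il7r and Lef1 of the same list were not restricted in this way, at 5.02 to 25.0, 8.89 to 25.9 and 2.95 to 48.9 CPM. They also serve lymphoid progenitors and T cells. Arpp21 had 8 to 131 counts. Of the 10 early genes 5 were tested and 1, Lef1, was called, with a log2 fold change of 2.39 (SE 0.55, edgeR quasi-likelihood adjusted p = 0.028). LEF1 is a transcription factor of WNT signaling that also acts in developing teeth, and Lef1 was highest in S23. Its call was lost without S18, S19 or S23 and after a correction for gene length. The median of the 5 genes was 0.82.

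**Figure D4:**
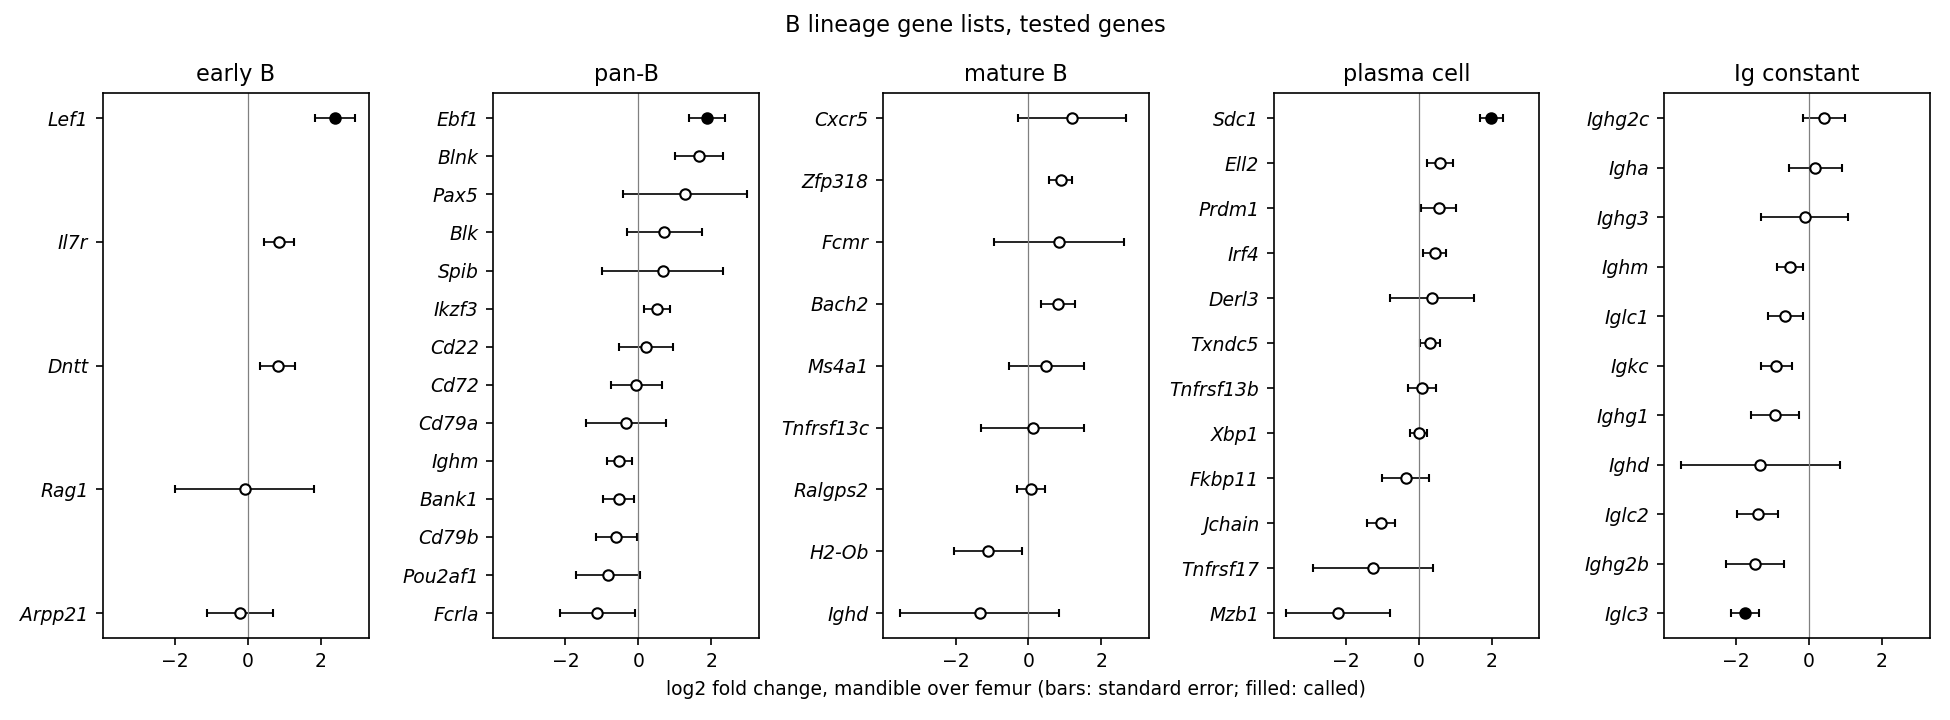
Log2 fold change of mandible over femur with its standard error (horizontal bars) for the tested genes of 5 lists, early B, pan-B, mature B, plasma cell and immunoglobulin (Ig) constant, but for 1 pan-B gene that is left out, with filled symbols for called genes. The called genes are Lef1, Ebf1, Sdc1 and Iglc3, and 9 of the 11 constant genes lie below 0.

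Over these lists, 42 of 50 other B lineage genes were tested and 3 were called, Lef1, Sdc1 and Iglc3, while 6 had an unadjusted p under 0.05, beside 5.18% and 16.4% of all tested genes. At 3 and 6 of 42, the shares on these lists were close to those of all genes. The pan-B list had all 15 of its genes tested, Ebf1 as its only called gene, and a median log2 fold change of -0.047. After Ighm, its highest CPM, not corrected for length, were those of Ikzf3 and Bank1, with log2 fold changes of 0.51 and -0.54 (adjusted p of 0.59 and 0.65, edgeR). The T and NK cell list, read for comparison with another lymphoid lineage, had 8 tested genes, none of them called and 1 with an unadjusted p under 0.05, and summed to 43.3 to 92.1 CPM in the femur and 64.8 to 117.7 CPM in the mandible. Of 6 tested genes on the list of plasmacytoid dendritic cells, 2, Cox6a2 and Tcf4, were called higher. All 6 had a log2 fold change above 0. The 4 not called included Siglech (log2 fold change 1.11, adjusted p = 0.69, edgeR) and Bst2 (0.086, adjusted p = 0.96, edgeR). Which cells the RNA of Cox6a2 and Tcf4 came from was not tested. Of 6 cell cycle genes, 1, Cdk1, was called lower.

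Stages were compared within each library through 3 gene pairs, as log2 ratios of counts with 0.5 added. Jchain over Ms4a1 was 8.78, 6.55 and 9.44 in femur libraries S13, S15 and S18 and 7.46, 7.57 and 5.50 in mandible libraries S16, S19 and S23. The groups overlapped, and the difference in means was -1.41 (exact two-sided permutation test, p = 0.3, 0.45 after Benjamini-Hochberg adjustment over the 3 pairs). Vpreb1 over Ms4a1 was -2.55 in S15 and -5.62 to -5.49 in S13, S18 and S16, and it was -6.23 in S19 and -7.20 in S23. It differed by -1.82 (exact two-sided permutation test, p = 0.1, adjusted p = 0.3), but with Vpreb1 at 0 in 5 libraries these ratios follow the counts of Ms4a1 and the 0.5 added. Ighd over Ighm was -9.58, -9.55 and -16.2 in femur libraries S13, S15 and S18 and -15.4, -9.50 and -14.7 in mandible libraries S16, S19 and S23 (exact two-sided permutation test, p = 1, adjusted p = 1). Its low values are those of the libraries without a count on Ighd. With 3 against 3 libraries no pair could reach a p under 0.05.

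The genes most like a B lineage gene in their pattern were read by Pearson's r of log2 CPM over the 6 libraries, among all tested genes, as a description. For Jchain they were Tuba4a, Rab5if, Psmb7, Mff and Ccdc32, with r from 0.993 to 0.996, and 543 genes had an r above 0.9. Ms4a1 was most like Map6, Kynu, Gm37033, Gm42819 and Gm43052, with r from 0.984 to 0.9905 and 269 genes above 0.9. For Ebf1 they were Plod2, Ptprd, Maml2, Uaca and Ltbp3, with r from 0.998 to 0.9998 and 1073 genes above 0.9. No member of the B lineage was among these 15 genes, and the libraries share depth and composition, which enter every r. Vpreb1 was not tested and has no such value.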

How the data were processed

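Raw counts per gene were deposited by the authors for the 6 libraries, made with featureCounts from paired-end reads that had been trimmed (Trimmomatic) and aligned (HISAT2 2.1.0). The settings for strand and for reads with several positions are not given in the sources used here. The methods name GRCm38, but the table's interval lay inside the gene of GENCODE M21 (GRCm38) for only 2979 of 52029 shared genes, and gene positions here are those of M21, matched on the Ensembl identifier. Lengths are those of the count table.

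The test was edgeR's quasi-likelihood test (edgeR 4.0.16, R 4.3.3) after TMM scaling and filterByExpr (min.count 10, min.total.count 15, prior count of 0.125, no covariates), with Benjamini-Hochberg adjustment over all tested genes. The standard error is the log2 fold change over the root of its F value. Single values were tested by exact permutation. The alternatives were DESeq2 1.42.0, limma-voom (limma 3.58.1), other normalizations and filters, a loess correction (span 0.4) for gene length, no fold change threshold, a pseudocount of 2 for the gene pairs, and each library left out in turn. The fits were tested on simulated data.

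The members, the lists of stage and cell type genes and the tests were chosen with earlier results of these data known. Named genes were all 9 members, up to 3 called genes in each direction and the 3 most abundant of each B lineage list, the EBF family, and the 5 genes most like Vpreb1, Ms4a1, Jchain and Ebf1. Others, such as Mzb1, Tnfrsf17, Cr2, Fcer2a, Igll1, Rag1 and Rag2, were named after their values were seen. The values of 1 gene of the pan-B list are not reported here.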

Additional observations from a re-analysis of the deposited data

How the results depend on the processing

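The number of B lineage members called, 1 in the fit as reported, was 0 without normalization factors, with limma-voom and after the length correction, 2 with DESeq2 (Ebf1 and Jchain), and 0 to 1 with a single library left out, where the 1 was Jchain. The number of other B lineage genes called, 3 as reported, was 5 with no filter beyond a single count, 1 after the length correction (Sdc1), and 1 to 4 with 1 library left out. Sdc1 was called in all 15 of these alternatives. The log2 fold change changed sign with 1 library left out for Cd79a (-0.92 without S19 to 0.15 without S23), Ms4a1 (-0.24 without S23 to 1.04 without S15) and Pax5 (-2.56 without S16 to 2.55 without S15), none of which was called in any fit. The other 5 tested members and the 3 gene pairs kept their direction under every alternative run, but for the pairs the design cannot reach a p under 0.05. The causes were not tested. The length correction of the Vpreb1 pair was not run, since Vpreb1 did not pass the filter. At the low counts of Ms4a1, Ighd, Pax5 and Vpreb1, a difference between sites was not detectable unless it was large.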

Other observations

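Heavy chain classes other than IgM varied between libraries of the same site. Ighg2b, the heavy chain of IgG2b, reached 516 CPM in femur library S18 and 32.2 to 124.5 CPM in the other 5 libraries, and its log2 fold change was -1.48 (SE 0.80, edgeR quasi-likelihood adjusted p = 0.42), with a call as lower when no filter beyond a single count was used. Igha was at 113, 46.4 and 311 CPM in femur libraries S13, S15 and S18 and at 222.5, 276 and 32.8 CPM in mandible libraries S16, S19 and S23 (log2 fold change 0.17, adjusted p = 0.95, edgeR), so both sites held libraries with high and low values. Among light chains, Igkc took 86.1 to 94.7% of the constant level per length. Whether these differences go with single animals was not tested, since the animal of each library is not given in the sources used here. These genes were chosen after their values were seen.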
